A study of Homo sapiens with 4 samples.

Results

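The AP-1 and immediate early genes described here are FOS, FOSL1, FOSL2, JUN, JUNB, JUND, EGR1, IER2, IER3 and DUSP1. They were taken by their symbols from a table of read counts, where all 10 were found among 18917 genes. RNA-seq was done on total RNA of THUMPD1 knockout (KO) cells and of the wild-type (WT) cells they were made from, with 2 libraries per genotype. The line is HEK-293T, a human embryonic kidney line, which the sample labels call HEK293. Both genotypes were grown in DMEM with serum and 2 mM glutamine, and the labels name no stress or stimulus. THUMPD1 is the adapter protein that NAT10 needs to acetylate cytidine in leucine and serine transfer RNAs. KO cells were made with CRISPR-Cas9 and a pair of guides, and candidates were then sorted as single cells, so the effect of the genotype and that of a clone cannot be told apart.

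AP-1 is a dimeric transcription factor built from a JUN protein and a FOS, JUN or ATF protein, which bind DNA through a basic region and pair through a leucine zipper. In resting cells most of its genes are transcribed weakly. Growth factors and stress act on them through kinase cascades that end in ERK, JNK and p38, and their RNAs rise within minutes and are soon degraded. Stalled and collided ribosomes also feed into JNK and p38 through the kinase ZAK. EGR1 is a zinc finger factor induced in the same way, IER2 and IER3 are other early response genes, and DUSP1 is a phosphatase that removes the activating phosphates from MAP kinases. The comparison of KO with WT asks how the steady-state RNA of these genes differed when transfer RNA acetylation was lost.

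Induction of early genes is known to act largely through sites just upstream of their starts, and 4 upstream sequences are shown because they carry letters of such sites. Each is the 250 bases before the start of the gene in RefSeq on GRCh38.p14, read 5′ to 3′ on the strand of the gene. Capitals mark CArG boxes, which serum response factor (SRF) binds, the TGACGT core of the site for CREB and ATF proteins on either strand, and TGACATCA, a site that JUN and ATF2 dimers are known to bind. The sequence of EGR1 is chr5:138465229-138465478 on the plus strand, that of FOS is chr14:75278578-75278827 on the plus strand, that of JUN is chr1:58784048-58784297 on the minus strand and that of JUND is chr19:18281623-18281872 on the minus strand.
EGR1: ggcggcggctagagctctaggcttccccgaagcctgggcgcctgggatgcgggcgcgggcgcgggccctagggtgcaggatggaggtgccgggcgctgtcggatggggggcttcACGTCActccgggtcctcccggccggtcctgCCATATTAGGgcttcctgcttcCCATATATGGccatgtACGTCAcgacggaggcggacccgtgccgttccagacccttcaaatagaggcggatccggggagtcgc
FOS: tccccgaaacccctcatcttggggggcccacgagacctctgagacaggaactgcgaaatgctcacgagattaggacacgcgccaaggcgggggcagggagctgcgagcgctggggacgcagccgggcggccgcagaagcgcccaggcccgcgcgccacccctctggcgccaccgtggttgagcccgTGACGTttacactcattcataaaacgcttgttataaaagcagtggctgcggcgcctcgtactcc
JUN: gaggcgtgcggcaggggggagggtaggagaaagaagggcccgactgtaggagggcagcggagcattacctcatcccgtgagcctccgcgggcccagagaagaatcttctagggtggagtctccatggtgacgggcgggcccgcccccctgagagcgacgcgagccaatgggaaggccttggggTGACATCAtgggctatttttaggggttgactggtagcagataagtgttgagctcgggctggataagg
JUND: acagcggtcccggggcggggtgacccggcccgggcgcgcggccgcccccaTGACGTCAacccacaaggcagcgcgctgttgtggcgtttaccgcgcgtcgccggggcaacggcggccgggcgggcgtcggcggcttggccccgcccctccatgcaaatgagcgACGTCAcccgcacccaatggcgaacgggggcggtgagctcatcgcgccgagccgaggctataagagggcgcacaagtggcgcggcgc
EGR1 held 2 CArG boxes, at 105 to 96 and 83 to 74 bases before its start, and 2 TGACGT cores. FOS held 1 TGACGT core, 64 to 59 bases before its start. JUN held TGACATCA at 67 to 60 bases before its start. In JUND the palindrome TGACGTCA is read as a TGACGT core on each strand, and a further core lay 87 to 82 bases before its start.

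Of the 10 genes, 8 had an upstream sequence in the RefSeq table, and FOSL1 and IER3 had none there. TGACGT was found in 5 of the 8, namely FOS, FOSL2, JUND, EGR1 and DUSP1, and in 7.42% of 27305 upstream sequences of the same length, 1 per symbol. A CArG box was found in 1 of the 8 and in 1.14% of all. TGACATCA, searched on both strands, was found in JUN alone and in 2.45% of all. The AP-1 site TGANTCA, a palindrome, was found in none of the 8 and in 6.60% of all. TATAAA, searched on the strand of the gene, was found in FOS, JUNB and DUSP1 and in 7.17% of all. Over the 9927 upstream sequences of genes tested, the shares were 10.2% for TGACGT, 0.987% for a CArG box, 1.35% for TGACATCA, 3.62% for TGANTCA and 3.20% for TATAAA. These matches are descriptions of the letters, not of binding. Bases farther upstream were not searched, so a gene with no match here, such as FOS for the CArG box, may hold one there.

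The libraries held 7875722 to 11362363 counts, so that 3 counts were worth 0.259 to 0.391 CPM (counts scaled to the effective library size by TMM). THUMPD1 itself was counted 356 and 468 times in WT and 71 and 58 times in KO, and its RNA was lower in KO by a log2 difference of -2.93 (SE 0.17; adjusted p = 1.27e-12, from the quasi-likelihood test of edgeR with p-values adjusted by Benjamini and Hochberg's method over all genes tested, as everywhere below). All 8 genes used as markers of the line passed the filter on low counts. Among them NEFM fell by 2.87 on the log2 scale. LHX1 rose by 2.12 (SE 0.61; adjusted p = 0.0138, edgeR's quasi-likelihood test). LHX1 was counted 6 and 6 times in WT, or 0.782 and 0.546 CPM, and 37 and 27 times in KO. Only the KO libraries brought LHX1 over the filter of 1 CPM, so its passing is no sign of the marker in WT. Summed over each list, markers of fibroblasts reached at most 32.8 CPM in any library, those of blood cells 9.46 CPM and those of endothelium 1.6 CPM. The median log2 difference was -0.44 over the genes of chromosome 16 and -0.42 over those of chromosome 22. None of the 10 genes lies on either chromosome. Nothing says that the libraries came from separate cultures, so p-values measure only the spread between these libraries, which may be technical. With 2 libraries on each side, exact permutation of the labels reaches no p under 0.333, so it was not used. Bulk RNA cannot tell fewer expressing cells from less RNA per cell.

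The RNAs of the 10 genes lay on very different levels. On the scale of CPM per kilobase of the longest transcript, JUN stood highest with 88.0 in WT and 82.6 in KO. JUND followed with 24.4 and 18.1, IER2 with 19.3 and 20.0, and DUSP1 with 8.95 and 8.39. IER3 stood at 4.80 and 2.21, JUNB at 3.38 and 2.18, and EGR1 at 2.78 and 5.14. The FOS genes were lowest, with FOSL2 at 0.849 and 0.802, FOSL1 at 0.676 and 0.769 and FOS at 0.409 and 0.915. Summed per library, the JUN genes reached 99.5 to 116 CPM per kilobase. The FOS genes FOS, FOSL1 and FOSL2, with FOSB added, reached 2.88 to 3.74. The ratio was 40.3 and 35.3 in WT and 28.4 and 28.3 in KO. FOSB, which is not among the 10 genes, stood at 1.15 in WT and 1.14 in KO. JUN alone made up 74.0% to 81.0% of the summed level of the JUN genes. Among the JUN and FOS genes, FOSB included, most of the RNA was thus that of JUN and JUND in both genotypes.

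**Figure D1:**
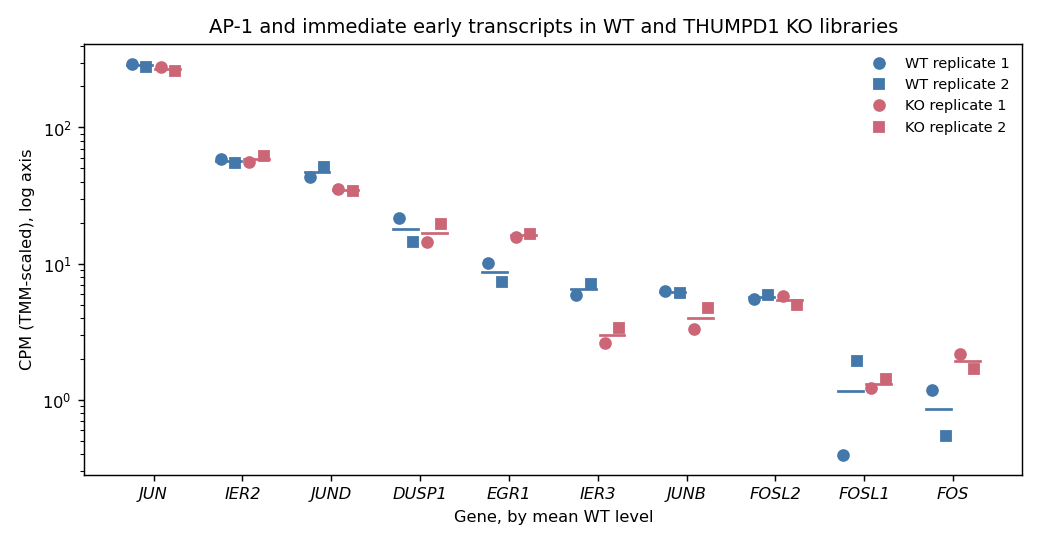
CPM of each gene in the 4 libraries on a log axis, with WT in blue and KO in red, circles for replicate 1, squares for replicate 2 and a line at the mean of each genotype. The KO libraries lie above both WT libraries for EGR1 and FOS, below them for JUND, IER3 and JUNB, and overlap them for the other genes, and the FOSL1 values of WT lie far apart at 0.391 and 1.91 CPM.

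EGR1 was the gene that rose in KO, and JUND and IER3 fell. The other 7 did not pass the test at an adjusted p under 0.05. Over all 13128 genes tested, 20.9% passed, 8.79% higher and 12.1% lower in KO, and a share of 30% from 10 genes is near that background and is no result about the group. The median log2 difference of the 10 genes was -0.08, beside 0.01 over all genes tested (quartiles -0.20 and 0.21), and 4 lay above 0 and 6 below. The KO and WT libraries did not overlap for 5 of the 10, and for 60.4% of all genes tested. These RNAs thus lay on both sides of no change.

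EGR1 (chr5:138465479-138469303, plus strand, GENCODE 44 on GRCh38) was counted 78 and 80 times in WT and 183 and 175 times in KO. This came to 10.2 and 7.28 CPM in WT and 15.8 and 16.4 CPM in KO. Both KO libraries stood above both WT libraries, and the WT libraries differed more from each other than the KO libraries did. The mean rose from 8.73 CPM ± 2.05 (SD, n = 2) to 16.1 CPM ± 0.442 (SD, n = 2). The log2 difference was 0.91 (SE 0.21, 95% interval 0.47 to 1.34), a 1.87-fold rise, with an adjusted p of 0.0030 by edgeR's quasi-likelihood test. Without WT replicate 2, the lower WT library, it was 0.66 with an adjusted p of 0.0505 in edgeR's test.

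The other EGR genes are closely related zinc finger factors and were too low to be tested at the filter of 1 CPM in 2 libraries. EGR2 had no counts in WT and 4 and 9 in KO. Its KO mean was 1.79 times a floor of 3 counts per WT library, a value that allows for no counting error. KO replicate 1 alone, at 0.346 CPM, stood close to that floor of 0.332 CPM. EGR3 had 1 and 2 counts in WT and 7 and 15 in KO, a ratio of 6.15 with an exact counting interval of 1.85 to 32.1. EGR4 was counted only 2 times, in KO replicate 1. With no filter beyond 1 count in any library, edgeR's quasi-likelihood test gave an adjusted p of 0.0704 for EGR2 and 0.146 for EGR3. EGR2 and EGR3 thus stood higher in both KO libraries than in both WT libraries, but neither passed the test.

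FOS (chr14:75278826-75282230, plus strand), the founding member of its family and the JUN partner that induction is best known for, was counted 9 and 6 times in WT and 25 and 18 times in KO. These are 1.17 and 0.546 CPM in WT and 2.16 and 1.69 CPM in KO. Both KO libraries lay above both WT libraries, but the counts were few. The log2 difference was 1.22, the largest positive one among the 10 genes, with an SE of 0.65 and a 95% interval of -0.12 to 2.56. It did not pass the test (adjusted p = 0.194, edgeR's quasi-likelihood test), and at this depth the interval ran from 0.919-fold to 5.89-fold of the WT level.

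FOSL1 (chr11:65892049-65900573, minus strand) codes for FRA1, a FOS protein without the strong activating domain of FOS. It was counted 3 and 21 times in WT and 14 and 15 times in KO, or 0.391 and 1.91 CPM in WT and 1.21 and 1.41 CPM in KO. The KO values lay between the WT values, whose difference was the widest between replicates of any of the 10 genes. The log2 difference of KO over WT was 0.09 (95% interval -1.32 to 1.49). It ran from -0.55 without WT replicate 1 to 1.71 without WT replicate 2, so that which WT library was used set its sign.

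FOSL2 (chr2:28392448-28417317, plus strand) codes for FRA2. Its levels were 5.48 and 5.91 CPM in WT and 5.79 and 4.98 CPM in KO, from 42, 65, 67 and 53 counts. The groups overlapped, and the log2 difference was -0.08 (95% interval -0.72 to 0.56).

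JUN (chr1:58776845-58784048, minus strand) is the main partner of the FOS proteins and a substrate of JNK, which phosphorylates its activating domain. It was counted 2260 and 3062 times in WT and 3244 and 2745 times in KO, which gave 295 and 279 CPM in WT and 280 and 258 CPM in KO. The groups overlapped. As the most abundant of the 10, it had the narrowest interval, with a log2 difference of -0.09 (SE 0.06, 95% interval -0.22 to 0.04; adjusted p = 0.346, edgeR's quasi-likelihood test). This interval leaves room for a fall to 0.856-fold and for a rise to 1.03-fold of the WT level.

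JUNB (chr19:12791486-12793315, plus strand), a JUN protein that binds DNA with FOS but activates less than JUN at many sites, was counted 48 and 67 times in WT and 38 and 50 times in KO. Its levels were 6.26 and 6.10 CPM in WT and 3.28 and 4.69 CPM in KO. Both KO libraries lay below both WT libraries, and the log2 difference was -0.63 (95% interval -1.32 to 0.06; adjusted p = 0.189, edgeR's quasi-likelihood test). JUNB lies inside the span of HOOK2, which is read from the other strand. HOOK2 was counted 300, 392, 335 and 276 times in WT and KO replicates 1 and 2, and it fell by 0.44 on the log2 scale (adjusted p = 0.0152, edgeR's quasi-likelihood test). Whether the counting used strand is not stated, so reads of the pair cannot be told apart. Long noncoding RNA genes overlap FOSL2, IER2, IER3 and DUSP1 on the other strand, and FOSL2 on its own strand as well. They have no counts of their own here.

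JUND (chr19:18279694-18281622, minus strand) is the JUN gene that is least induced and most steadily expressed in resting cells. It was counted 329 and 565 times in WT and 411 and 366 times in KO. These were 42.9 and 51.4 CPM in WT and 35.5 and 34.4 CPM in KO, with both KO libraries below both WT libraries. The mean fell from 47.2 CPM ± 6.01 (SD, n = 2) to 34.9 CPM ± 0.803 (SD, n = 2). The log2 difference was -0.44 (SE 0.12, 95% interval -0.68 to -0.20), or 0.737-fold of WT, with an adjusted p of 0.0089 by edgeR's quasi-likelihood test. Without WT replicate 2, the higher WT library, it was -0.30 with an adjusted p of 0.185 in edgeR's test.

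IER3 (chr6:30743199-30744548, minus strand), an early response gene that acts on cell survival and ERK signalling, was counted 45 and 78 times in WT and 30 and 36 times in KO. Its levels were 5.87 and 7.10 CPM in WT and 2.59 and 3.38 CPM in KO, and the groups did not overlap. The mean fell from 6.48 CPM ± 0.869 (SD, n = 2) to 2.99 CPM ± 0.558 (SD, n = 2). The noncoding RNA genes IER3-AS1 and HCG20 overlap IER3 on the other strand, and their reads may be counted with it. The log2 difference was -1.13 (SE 0.35, 95% interval -1.85 to -0.41), or 0.458-fold of WT, with an adjusted p of 0.0220 by edgeR's quasi-likelihood test. The call was lost without WT replicate 2 (adjusted p = 0.125 in edgeR's test), without KO replicate 1 (adjusted p = 0.184 in edgeR's test) and with DESeq2 (adjusted p = 0.0668).

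IER2 (chr19:13150411-13154911, plus strand), an early response gene for a nuclear protein, was counted 449 and 598 times in WT and 648 and 653 times in KO. These were 58.6 and 54.4 CPM in WT and 56.0 and 61.3 CPM in KO. The groups overlapped, with a log2 difference of 0.06 (95% interval -0.15 to 0.26). This interval runs from 0.902-fold to 1.20-fold of the WT level.

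DUSP1 (chr5:172768096-172771195, minus strand), the early feedback phosphatase of JNK, p38 and ERK, was counted 166 and 158 times in WT and 166 and 207 times in KO. Its levels were 21.6 and 14.4 CPM in WT and 14.3 and 19.4 CPM in KO. WT replicate 1 and KO replicate 2 were high and the others low, so the groups overlapped. The log2 difference was -0.08 (95% interval -0.48 to 0.33). The sign turned when WT replicate 1 or KO replicate 1 was left out, with 0.23 and 0.13.

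**Figure D2:**
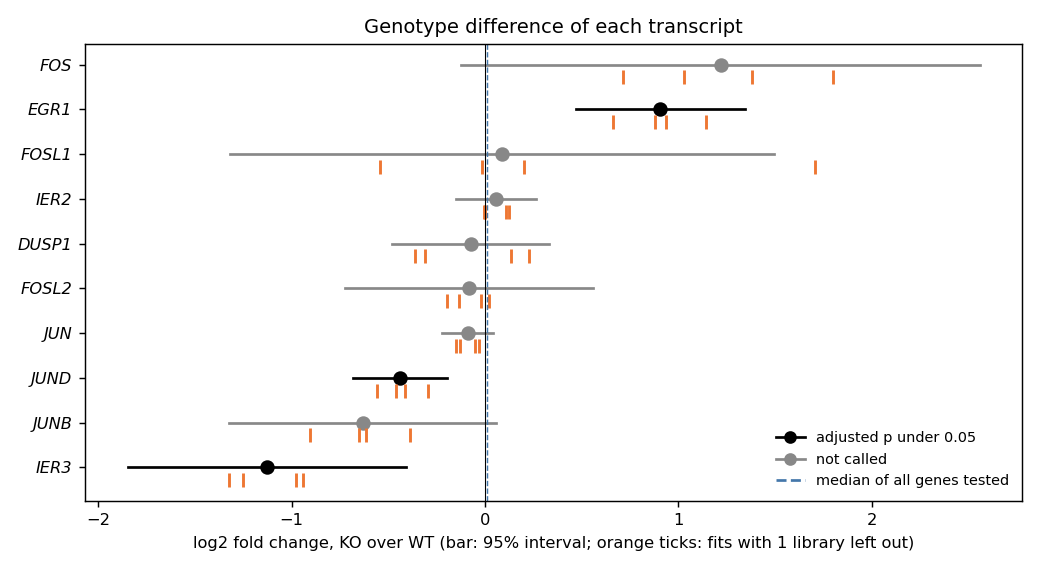
Log2 difference of KO over WT for each gene (point) with its 95% interval (bar), black where the adjusted p was under 0.05, and the values with 1 library left out (orange ticks). The intervals of EGR1, JUND and IER3 do not cross 0, while those of FOS and FOSL1 are wide and that of JUN is narrow and close to 0.

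None of the 3 calls held without WT replicate 2: edgeR's quasi-likelihood test then called 0 of the 10 genes, with 2 of them, EGR1 and IER3, at an unadjusted p under 0.05. The median absolute log2 difference between replicates was 0.27 in WT and 0.22 in KO over the 10 genes, beside 0.14 and 0.13 over all genes tested. Genes were not matched by level here. By mean CPM, FOSL1 lay at percentile 2.81 of genes tested, FOS at 3.84, IER3 at 14.9, JUNB at 15.5, FOSL2 at 16.4 and EGR1 at 27.1. The others lay at 33.7 (DUSP1) to 96.3 (JUN). Whether level accounts for the wider median was not tested. Replicate 2 was above replicate 1 for 4 of the 10 genes in WT and for 6 in KO. For 5 of the 10, the genotype difference was larger than both replicate differences.

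**Figure D3:**
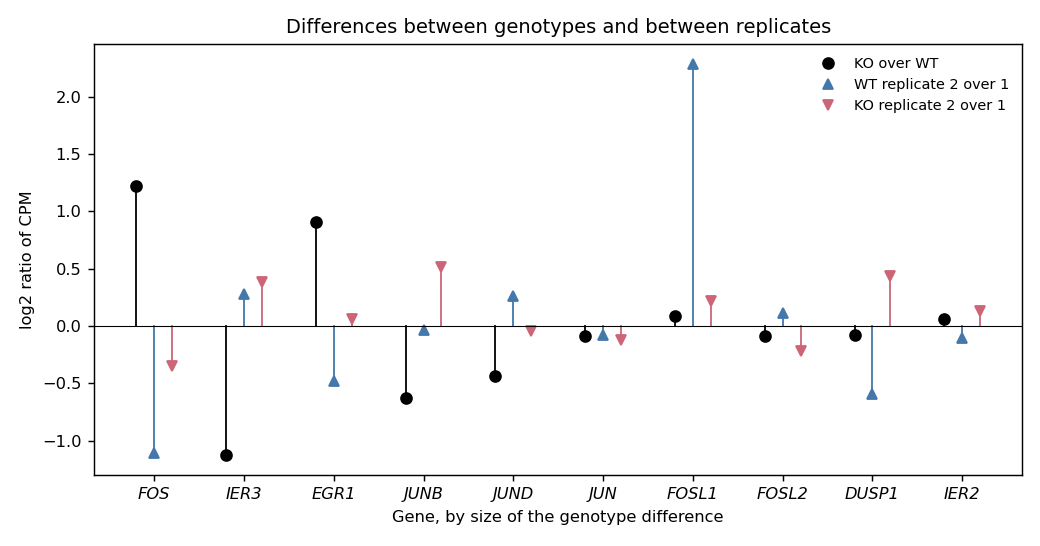
Log2 ratios of CPM for each gene, with KO over WT as black circles and replicate 2 over replicate 1 as blue triangles for WT and red inverted triangles for KO. The FOSL1 ratio between WT replicates, 2.29, exceeds every genotype difference, and for EGR1, IER3, JUNB, JUND and FOS the genotype difference is the largest of the 3.

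Features that the choice of these genes did not use were read as well, and not all of them were shared. The canonical transcript had 1 exon for JUN, JUNB and JUND, 2 for EGR1, IER2 and IER3, and 4 for FOS, FOSL1, FOSL2 and DUSP1. The longest transcript had a GC content of 52.8% (FOS) to 69.9% (JUND), above the median of 47.9% over genes tested. Leucine codons are of interest because THUMPD1 acts on leucine transfer RNAs. The codons UUA, UUG, CUA and CUU made up 4.55% (IER2) to 25% (FOSL1) of the leucine codons of each gene. All 10 shares lay below the median of 40.8% over 12962 genes tested with a coding sequence, which leaves CUC and CUG as the common leucine codons of the 10. JUND had 4 of those codons among 38 leucine codons, EGR1 6 among 31 and IER3 1 among 17. The gene that rose and those that fell were thus alike in being poor in these codons. CUC and CUG hold more G and C than UUA, UUG, CUA and CUU, so codon share and GC content are not independent features.

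Genes nearby were read as well. Over the 10 tested genes nearest to each called gene, the median log2 difference was -0.02 around EGR1, with 2 called. It was -0.23 around JUND, with 1 called, and -0.18 around IER3, with 2 called. Of all genes tested, 20.9% were called. Around genes that were not called, the median was -0.19 for JUNB (4 called) and -0.16 for IER2 (3 called). It was -0.14 for both FOSL1 (3 called) and DUSP1 (4 called). Around FOS, FOSL2 and JUN it was 0.04, 0.05 and 0.09. Low medians nearby were thus not particular to the genes that fell.

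Other partners of AP-1 moved both ways. Of 11 tested, 2 rose and 3 fell, with a median log2 difference of -0.03. For this list and those below, the background is 8.79% higher and 12.1% lower over all genes tested. The counts of called genes were not tested against it and are no result about a list. ATF3, a stress-induced ATF protein that pairs with JUN, rose by 0.64 from 23.4 CPM ± 1.01 to 36.6 CPM ± 1.08 (SD, n = 2 each). JDP2, a repressor that pairs with JUN, rose by 0.60. BATF3, a JUN partner without an activating domain, fell by 1.02 on the log2 scale, from 17.4 CPM ± 1.51 to 8.60 CPM ± 0.0616 (SD, n = 2 each). The small MAF proteins MAFK and MAFF also lack an activating domain, and they fell by 0.72 and 2.12. MAFF has a mean below 5 CPM, was named after its values were seen, and lies on chromosome 22. ATF3, BATF3 and MAFK passed the test with each library left out in turn, JDP2 stood at 0.29 without WT replicate 1 and 0.47 without KO replicate 1 and was then not called, nor was it with DESeq2 (0.61) or limma-voom (0.61), and MAFF was not called without KO replicate 1 (-1.85). FOSB had a log2 difference of 0.01 (95% interval -0.72 to 0.75), and ATF2 one of 0.05 (95% interval -0.15 to 0.25).

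Of 31 other immediate early and early response genes, 3 rose and 2 fell, with a median of 0.12. CYR61, a secreted matrix protein gene known to respond to serum, rose by 0.97 from 7.03 CPM ± 0.352 to 13.8 CPM ± 0.941 (SD, n = 2 each). KLF10, a zinc finger gene induced by TGF-β, rose by 0.38, and ATF3 is the third. MYC, the growth regulator, fell by 0.20, and GADD45A, a DNA damage response gene, fell by 0.34. IER5 (-0.19), BTG2 (-0.15) and PPP1R15A (-0.10), early and stress response genes, were not called. ATF3 and CYR61 passed the test with each library left out in turn. KLF10 was called only without WT replicate 2 (0.42) and MYC only without WT replicate 1 (-0.26), while GADD45A lost its call without WT replicate 1 (-0.21) and without KO replicate 1 (-0.15). MYC and GADD45A were also not called with library size alone (-0.11 and -0.26), by upper quartile (-0.17 and -0.32), with DESeq2 (-0.20 and -0.34) or with limma-voom (-0.14 and -0.31), and KLF10 was not called with DESeq2 (0.38).

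In the stress kinase cascades, 3 of 20 genes rose and 2 fell, with a median of -0.03. ZAK, which senses stalled ribosomes, had a log2 difference of 0.00 (95% interval -0.21 to 0.21), with 55.7 CPM ± 1.29 in WT and 55.6 CPM ± 3.98 in KO (SD, n = 2 each). Among the JNK kinases, MAPK8 (JNK1) rose by 0.49 and MAPK9 (JNK2) by 0.25. Of the kinases that activate them, MAP2K4 rose by 0.32 and MAP2K7 fell by 0.34. MAPK14, the main p38 kinase, had a difference of 0.03 (95% interval -0.22 to 0.28). MAPK13, a p38 kinase below a mean of 5 CPM that was named after its values were seen, was counted 47, 81, 11 and 6 times and fell by 3.13. MAP2K7 kept its call with each library left out, MAPK8 lost it without WT replicate 1 (0.41) and without KO replicate 1 (0.39), MAPK9 kept it only without WT replicate 1 (0.28), and MAP2K4 kept it in none of these fits (0.29 to 0.36). With DESeq2, MAPK8 (0.49), MAPK9 (0.25) and MAP2K4 (0.32) were not called. Without either WT library MAPK13 did not pass the filter on low counts. RNA levels of kinases say nothing of their phosphorylation, which was not measured here.

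In the ERK cascade, 2 of 11 genes rose and 2 fell. Among them BRAF, a kinase at the head of the cascade, rose by 0.29, and MAPK3, which codes for an ERK kinase, fell by 0.56. MAPK3, which lies on chromosome 16, kept its call with each library left out, and BRAF lost its call without WT replicate 2 (0.29) or KO replicate 1 (0.24) and with DESeq2 (0.29). Of SRF, its cofactors and CREB with its coactivators, 10 genes were tested, and 5 fell while none rose, beside 12.1% lower of all genes. MKL1 and MKL2, cofactors of SRF, fell by 0.62 and 0.49, and the acetyltransferases CREBBP and EP300 fell by 0.45 and 0.22. EP300 was named after its values were seen. MKL1 and EP300 are on chromosome 22 and MKL2 and CREBBP on chromosome 16, where the medians of all genes were low as well. The fifth, ELK1, an SRF partner that ERK phosphorylates, fell by 0.25. Of the fits with 1 library left out, ELK1 was called only in that without WT replicate 1 (-0.30), and it was not called with library size alone (-0.17), by upper quartile (-0.23), with DESeq2 (-0.25) or with limma-voom (-0.22). EP300 lost its call without WT replicate 1 (-0.16) or KO replicate 2 (-0.17), while MKL1, MKL2 and CREBBP kept theirs with each library left out. SRF itself (-0.14) and CREB1 (-0.01) were not called. With 1 library left out, SRF ranged from -0.22 to -0.06, and without WT replicate 1 it was called (adjusted p = 0.0497, edgeR's quasi-likelihood test).

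Of 8 other MAP kinase phosphatase genes, DUSP7 alone was called and fell by 0.42. Of 8 factors that degrade or protect RNAs with AU-rich elements, a feature of many early transcripts, HNRNPD alone was called and fell by 0.45. Of 23 known AP-1 target genes, 9 were expressed enough to be tested and 3 were at 0 counts in every library. HMOX1, an oxidative stress gene on chromosome 22, rose by 0.59, while GSTP1, a detoxifying enzyme, and CCND1, cyclin D1, fell by 0.62 and 0.52. DUSP7, HNRNPD, GSTP1 and CCND1 kept their calls with each library left out, and HMOX1 was called only without WT replicate 2 (0.69) among those fits and was not called with DESeq2 (0.59). Over these 8 lists, 94 tested genes lay outside chromosomes 16 and 22, of which 9 rose and 11 fell with a median of 0.00. The 11 on those chromosomes had 1 that rose and 7 that fell, with a median of -0.25.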

How the data were processed

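There were 4 RNA-seq libraries of total RNA from WT and THUMPD1 KO cells. Each column of the count table carries the title of 1 sample, and the labels of that sample gave its genotype and replicate number. The labels name a Zymo-Seq RiboFree kit and 2 libraries per genotype, where the methods of the study name an Illumina kit and a larger number of samples. The values deposited by the authors are raw counts of reads per gene symbol, not normalized. The submitters' processing notes name hg 19, and the methods name STAR and RSEM on a later build, so the pipeline behind these counts is not given in the sources used here. A second table holds the comparison made by the authors (mean, log2 fold change, error and p-values) and was not used.

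Counts were fitted in R 4.3.3 with edgeR 4.0.16 (TMM, glmQLFit and glmQLFTest) over 13128 genes that reached 1 CPM in 2 or more libraries. P-values were adjusted by the Benjamini-Hochberg method, and a gene was called at an adjusted p under 0.05. The script was tested on simulated data. No entry of the table lacked a gene name. The interval of the EGR3 ratio covers counting error only, and the value of EGR2 over the floor covers no error. Positions, lengths and codons are those of GENCODE 44 on GRCh38, used with no conversion between builds. DESeq2 1.42.0 and limma 3.58.1 served as alternatives, with other scalings, filters, a threshold of 0.01, the replicate number as a block, and each library left out. Python 3.11.15 made the tables with pandas 2.3.3 and NumPy 2.4.6, the counting intervals with SciPy 1.17.1, and the figures with matplotlib 3.10.9.

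The 10 genes and the other lists were chosen with earlier results of these data known, and the lists were compiled by hand. Named from each other list are up to 4 genes with an adjusted p under 0.05, the largest differences and a mean of at least 5 CPM, and a set of kinases, AP-1 partners, early genes and regulators. ELK4 was not analysed here, and some called genes of the ERK cascade are not reported here by name. ATF3, FOSB and ZFP36 stand in 2 lists each.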

Additional observations from a re-analysis of the deposited data

How the results depend on the processing

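Only 2 libraries per genotype limit these results, and the few counts of FOS, FOSL1 and the EGR genes limit theirs further. A lone library was assumed to vary like the others. EGR1, JUND and IER3 kept their direction in every fit run. EGR1 and JUND kept their calls under each alternative but 1, the fit without WT replicate 2. Over the fits that left out 1 library, the log2 difference ran from 0.66 to 1.14 for EGR1, -0.56 to -0.30 for JUND, -1.32 to -0.94 for IER3, 0.71 to 1.80 for FOS, -0.91 to -0.39 for JUNB, -0.15 to -0.03 for JUN, -0.55 to 1.71 for FOSL1, -0.19 to 0.021 for FOSL2, -0.0077 to 0.12 for IER2 and -0.36 to 0.23 for DUSP1. With DESeq2, IER3 was at -1.13 with an adjusted p of 0.0668, and at the threshold of 0.01 it was at -1.13 with an adjusted p of 0.0220 in edgeR and not called. DUSP1 was at 0.0073 when library size alone was used for scaling. Per kilobase of all annotated exons, JUN stood at 79.1 and FOSL2 at 0.795 CPM in WT, and the order of the 10 genes stayed as it was.

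The number of genes called, 2748, was 1755 with DESeq2 (643 higher), 1594 at 0.01 (556 higher and 1038 lower) and 1617 to 2599 with 1 library left out (606 to 1106 higher and 1011 to 1493 lower), the lowest without KO replicate 1. With library size alone, 2081 were higher and 1158 lower, so that 35.8% of calls were lower, beside 58.0%, and the median moved from 0.01 to 0.09. By upper quartile the lower share was 50.8%, and by quantile normalization 51.3%. Of the 10 genes, 0 to 3 were called with 1 library left out (0 to 1 higher and 0 to 2 lower), and with DESeq2 and at 0.01 1 was lower. The cause was not tested.

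Among the other lists, the AP-1 partners had 3 to 5 calls, the other early genes 2 to 6, the stress kinases 2 to 4, the ERK cascade 2 to 3, the SRF and CREB list 3 to 5 and the phosphatases 1 to 3 with 1 library left out. The other early genes had 3 calls by upper quartile, 2 with DESeq2, 3 with limma-voom and 2 at 0.01. The stress kinases had 2 with DESeq2 and 2 at 0.01, and the ERK cascade had 1 at 0.01. The SRF and CREB list had 3 with library size alone, 3 with limma-voom and 3 at 0.01. Of uncalled genes, some changed sign with 1 library left out, with log2 differences of -0.14 to 0.20 for MAPK14, -0.16 to 0.18 for FOSB, -0.043 to 0.14 for ATF2, -0.40 to 0.074 for BTG2 and -0.030 to 0.013 for CREB1. FOSB was at -0.041 with limma-voom. CREB1 was at 0.078 with library size alone, 0.018 by upper quartile and 0.039 with limma-voom.

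The labels do not say whether the replicate numbers pair the libraries. The deviations of same-numbered libraries from their group means correlated at 0.0257 over genes. This shows no pairing over all genes, but it cannot exclude one that acts on a smaller set. With the replicate block, 3222 genes were called, 3 of the 10 among them.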
